A study of Homo sapiens with 12 samples.

Results

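The genes described here are 31 genes of cholesterol and fatty acid synthesis and of the control of the sterol regulatory element-binding protein SREBP2. They were taken by symbol from a fixed list, and all 31 were found among the 36866 genes of the deposited table. They comprise the enzymes from acetyl-CoA to cholesterol, the proteins that hold, carry and cut SREBP2, the sterol carrier STARD4, and the enzymes that make and desaturate fatty acids. Other genes of these routes are described last, as lists.

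Cholesterol is built from acetyl-CoA through mevalonate, farnesyl diphosphate, squalene and lanosterol, and the long last stretch from lanosterol to cholesterol is carried out by a chain of enzymes in the endoplasmic reticulum. The factor that turns these genes on, SREBP2 (gene SREBF2), is made as a membrane-bound precursor. When sterols are plentiful, the INSIG proteins hold it in the endoplasmic reticulum through its escort SCAP, and when sterols run low SCAP carries it to the Golgi, where the site-1 and site-2 proteases (MBTPS1 and MBTPS2) release the active part. Most of the enzymes, and INSIG1 itself, are known targets of this factor. U-937 is known as a line that grows poorly without an outside source of cholesterol and that lacks activity at the 3-ketosteroid reductase step of synthesis. The culture medium held serum, which carries cholesterol.

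THP-1 and U-937 are human monocytic cell lines that the labels give as acute myeloid leukemia with a complex karyotype. Cells of each line were incubated for 24 h with honokiol, a small phenolic compound of magnolia, or with 0.1% DMSO as the control, and the poly(A) RNA of each of these 4 groups was sequenced in triplicate (3 libraries a group). The labels list 20 and 35 µM honokiol without saying which line received which dose, so dose and line cannot be told apart. The methods say in general terms that experiments were repeated, but neither they nor the labels say whether the libraries of a group came from separate cultures. The p-values measure the spread between these libraries, which may be technical. Each line is a single model, so a difference between them is one between these lines.

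The libraries held 57406966 to 75065752 estimated counts, with about 4 counts to a fragment. The mitochondrial share of the counts was 13.7% in THP-1 DMSO replicate 1 and 12.6% in U-937 DMSO replicate 1, and 5.61% to 7.55% elsewhere. All 9 monocytic marker genes examined passed an FPKM of 0.5 in at least 1 library, although MPO was only 0.06 to 0.17 in U-937. The 3 adipocyte markers found, examined because the extraction protocol mentions adipose tissue, summed to at most 0.28 FPKM in any library. Levels are given as FPKM, fragments scaled to transcript length and library size, which can be compared between genes. Differences are log2 fold changes from edgeR's quasi-likelihood test, with p-values adjusted over all genes tested. In bulk RNA a lower level in each cell and fewer cells with the transcript cannot be told apart.

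The genes spanned a wide range of levels. In DMSO-treated THP-1 cells the highest were ACLY, which makes cytosolic acetyl-CoA from citrate, at 72.8 ± 3.35 FPKM, and FASN, the fatty acid synthase, at 68.4 ± 2.85 FPKM (SD, n = 3). These neighbours in the order overlapped in their libraries. SREBF2 followed at 40.3 ± 3.64 FPKM and did not overlap FASN. The lowest were HSD17B7, the 3-ketosteroid reductase of the late pathway, at 0.997 ± 0.122 FPKM, and ELOVL6, a fatty acid elongase, at 0.720 ± 0.392 FPKM. In DMSO-treated U-937 cells FASN was highest, at 111.0 ± 11.5 FPKM, and both HSD17B7 and ELOVL6 stood at or next to 0. Summed over the 31 genes, the level was 437 to 512 FPKM in the DMSO-treated THP-1 libraries and 525 to 767 FPKM in the DMSO-treated U-937 libraries.

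**Figure D1:**
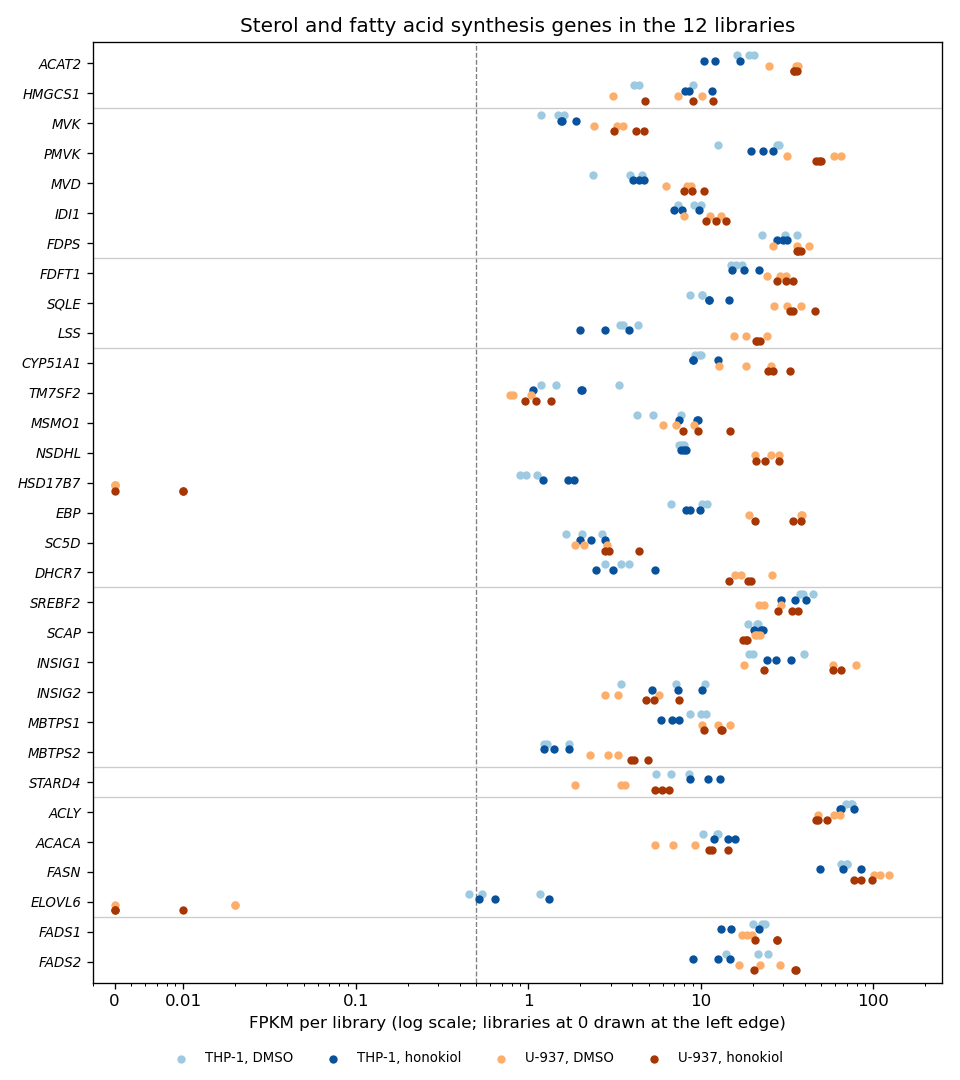
FPKM of each of the 31 genes in the 12 libraries on a logarithmic axis, with 1 point for each library and libraries at 0 drawn at the left edge. The genes are ordered by their place in the pathway, horizontal lines part the groups of genes, and the dashed line marks the limit of 0.5 FPKM. The U-937 points of HSD17B7 and ELOVL6 lie at 0.02 FPKM or less, far to the left of the THP-1 points, and the U-937 points of LSS, NSDHL and DHCR7 lie to the right of all THP-1 points.

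The largest differences were between the lines and not between treatments. Of the 30 genes past the limit of 0.5 FPKM in at least 3 of the 6 DMSO libraries, 18 (60.0%) differed between DMSO-treated U-937 and THP-1 cells at an adjusted p under 0.05, beside 47.3% of all 14617 genes tested. Of these, 13 were higher in U-937, beside 22.0% of all genes, and 5 were lower, beside 25.4% of all genes. The counts include HSD17B7 among the lower genes, which passed the limit only through the THP-1 libraries. The median log2 fold change, U-937 over THP-1, was 0.30 over the 30 genes and -0.04 over all genes. That median was 0.53 without DMSO replicate 3 of THP-1 and 0.52 without DMSO replicate 1 of U-937, but 0.18 without DMSO replicate 2 of THP-1. An absolute log2 fold change over 1 together with an adjusted p under 0.05 was reached by 11 of the 30 genes, beside 32.4% of all genes. The libraries of the lines did not overlap in FPKM for 20 of the 30 genes (66.7%), beside 57.6% of all genes.

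The first steps, from acetyl-CoA to farnesyl diphosphate, were partly higher in U-937. ACAT2, the cytosolic thiolase that joins acetyl-CoA units, had 19.13, 16.15 and 20.39 FPKM in the THP-1 DMSO libraries and 24.70, 36.48 and 35.40 FPKM in those of U-937. All U-937 values were above the THP-1 values, with a log2 fold change of 0.73 (SE 0.19, adjusted p = 0.0119). The call was lost without DMSO replicate 2 of THP-1 (log2 fold change 0.55, adjusted p = 0.0819). ACAT2 overlaps TCP1 on the other strand, and whether the counting used strand is not given in the sources used here. HMGCS1, the HMG-CoA synthase, ranged from 4.12 to 9.05 FPKM in THP-1 and from 3.09 to 10.18 FPKM in U-937, with full overlap and an interval of the log2 fold change from -0.79 to 1.14.

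MVK, the mevalonate kinase, had 1.19, 1.61 and 1.48 FPKM in DMSO-treated THP-1 and 2.40, 3.55 and 3.28 FPKM in U-937. PMVK, which adds the next phosphate, had 12.63, 28.42 and 27.65 FPKM in THP-1 against 31.44, 64.68 and 58.77 FPKM in U-937. MVD, the decarboxylase that follows, had 2.38, 3.91 and 4.57 FPKM in THP-1 and 6.31, 8.27 and 8.79 FPKM in U-937. All U-937 libraries were above all THP-1 libraries for these consecutive enzymes, and within each line DMSO replicate 1 was the lowest. The log2 fold changes were 1.05 for MVK (adjusted p = 0.00424), 1.12 for PMVK (adjusted p = 0.0227) and 1.05 for MVD (adjusted p = 0.00670). The PMVK call was lost without DMSO replicate 1 of THP-1 (log2 fold change 0.79, adjusted p = 0.0603), and also without either replicate 2 or replicate 3 of U-937. The later enzymes IDI1 (isopentenyl diphosphate isomerase) and FDPS (farnesyl diphosphate synthase) overlapped between the lines, with intervals of -0.26 to 0.71 and -0.29 to 0.64.

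The squalene steps were higher in U-937 throughout. FDFT1, the squalene synthase, had 17.32, 16 and 14.93 FPKM in DMSO-treated THP-1 and 24.24, 28.91 and 31.27 FPKM in U-937. SQLE, the squalene epoxidase and a control point of the pathway, had 10.19, 8.64 and 10.15 FPKM in THP-1 and 26.67, 37.90 and 31.47 FPKM in U-937. LSS, which closes the epoxide to lanosterol, had 3.42, 4.31 and 3.55 FPKM in THP-1 and 15.56, 18.26 and 24.31 FPKM in U-937. The libraries of the lines did not overlap, and U-937 was higher by 1.67-fold for FDFT1 (log2 fold change 0.74, adjusted p = 0.00533), 3.17-fold for SQLE (1.67, adjusted p = 0.000130) and 4.94-fold for LSS (2.30, 95% interval 1.87 to 2.74, adjusted p = 3.39e-05). Whether these fold changes differ from each other was not tested.

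Of the 8 enzymes from lanosterol to cholesterol, 4 were higher in U-937 and 2 were lower. CYP51A1, the lanosterol demethylase, had 10.01, 9.76 and 9.31 FPKM in DMSO-treated THP-1 and 12.76, 25.38 and 18.36 FPKM in U-937 (log2 fold change 0.89, adjusted p = 0.0135). NSDHL, which removes a carbon of the C4 methyl groups together with MSMO1 and HSD17B7, had 7.75, 7.49 and 7.95 FPKM in THP-1 and 20.70, 28.27 and 25.34 FPKM in U-937. NSDHL varied little among the THP-1 libraries and was 3.07-fold higher in U-937 (log2 fold change 1.62, adjusted p = 0.000123). The CYP51A1 call was lost without DMSO replicate 2 of THP-1 (adjusted p = 0.0618) or replicate 3 of THP-1 (adjusted p = 0.0616).

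EBP, the sterol isomerase, had 6.71, 10.21 and 10.82 FPKM in DMSO-treated THP-1 and 18.96, 38.05 and 38.53 FPKM in U-937. DHCR7, the reductase of the last steps, had 3.46, 2.80 and 3.82 FPKM in THP-1 and 17.16, 15.82 and 25.83 FPKM in U-937. DHCR7 showed the largest fold change of the genes detected in both lines, 5.58-fold (log2 fold change 2.48, 95% interval 1.95 to 3.01, adjusted p = 6.19e-05), and EBP was 3.31-fold higher (1.72, adjusted p = 0.00122). MSMO1, the C4 methyl oxidase, ranged from 4.25 to 7.72 FPKM in THP-1 and from 6.04 to 9.08 FPKM in U-937 (interval of the log2 fold change -0.25 to 0.90). SC5D, the sterol desaturase, ranged from 1.66 to 2.66 FPKM and from 1.87 to 2.86 FPKM (interval -0.56 to 0.62). The DMSO libraries of the lines overlapped for both genes.

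TM7SF2, a sterol reductase that acts next to CYP51A1, went the other way. It had 1.19, 1.45 and 3.37 FPKM in DMSO-treated THP-1 and 0.82, 0.78 and 1.04 FPKM in U-937, a log2 fold change of -1.21 (SE 0.41, adjusted p = 0.0367). The fold change rested in part on THP-1 replicate 3, without which it was -0.72 (adjusted p = 0.125), and the call was lost in 8 of the 17 alternatives tried.

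HSD17B7 (ENSG00000132196, chr1:162790702-162812817, + strand, GRCh38) was expressed in THP-1 and all but absent in U-937. It encodes the 3-ketosteroid reductase that completes the removal of each C4 methyl group. The estimated counts were 316, 348 and 394 in DMSO-treated THP-1 and 520, 671 and 702 in honokiol-treated THP-1. They were 0 in each of the 3 DMSO-treated U-937 libraries and 0, 4 and 4 in the honokiol-treated ones, where 4 counts are about 1 fragment. Every U-937 library thus lay below every THP-1 library by a wide margin. Against a floor of 3 fragments (12 counts) in each U-937 library, the level was at least 31.3-fold lower in DMSO-treated U-937 than in THP-1. The floor covers counting error only, and no p is given because the gene passed the limit only through the THP-1 libraries.

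Reads of HSD17B7 can be shared with its near-identical copy HSD17B7P2 on chromosome 10. The copy had 72 to 128 counts in DMSO-treated THP-1, 219 to 331 counts in honokiol-treated THP-1 and at most 4 counts in any U-937 library, so the U-937 libraries held almost no counts at either place. In THP-1 the division between both places is uncertain. UAP1, upstream of HSD17B7 on the same strand, was expressed in both lines, with 10.72 to 14.03 FPKM in THP-1 and 7.00 to 10.61 FPKM in U-937. DDR2, which lies between them, was at 0.26 FPKM or less in all 12 libraries.

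**Figure D2:**
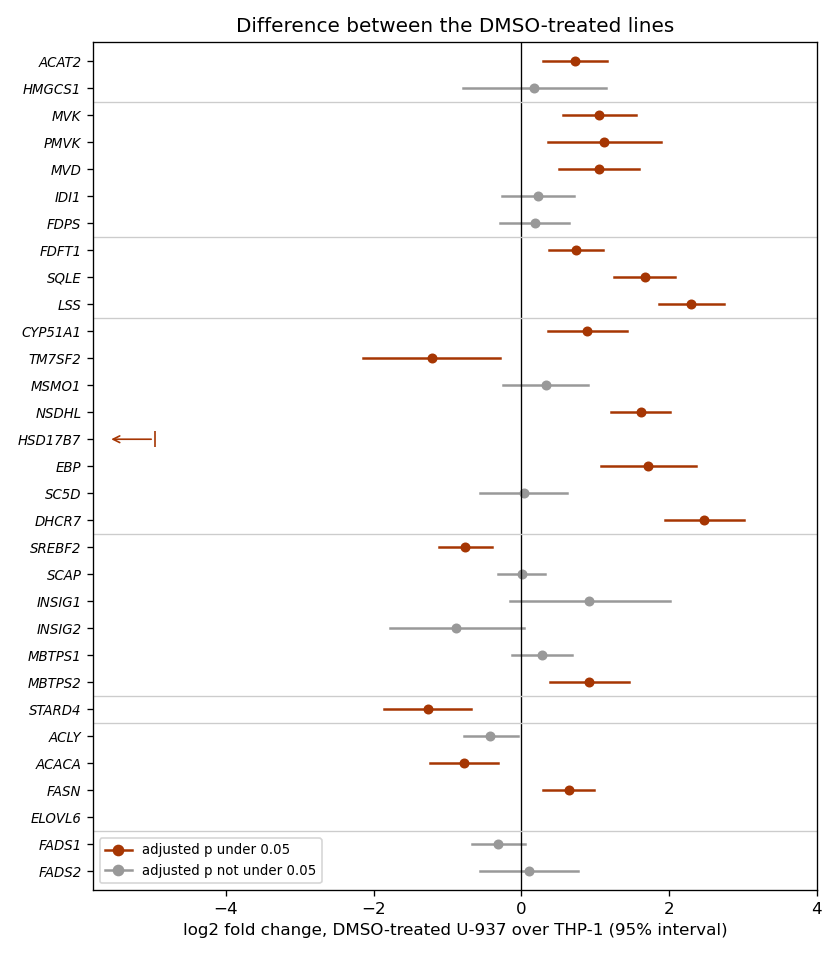
Log2 fold change of the genes between the DMSO-treated lines, U-937 over THP-1, with 95% intervals from edgeR and 3 libraries a line; dark red marks an adjusted p under 0.05. The genes follow the order of the pathway, and the mevalonate kinases, the squalene steps, NSDHL, EBP and DHCR7 lie to the right of 0. The arrow of HSD17B7 starts at its bound of at least 31.3-fold lower in U-937, and ELOVL6 has no point because it was not tested.

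The promoters of HSD17B7, which was all but absent in U-937, of LSS, among the genes with the widest gap in the other direction, of SREBF2, of INSIG1, and of STARD4, the only gene with an unadjusted p under 0.05 in both honokiol comparisons, are shown for reference. Each line gives the 150 bases before the RefSeq transcription start, 5′ to 3′ on the gene's own strand, from GRCh38.p14. Capitals mark matches on either strand to CCAAT (the core of the NF-Y site, ATTGG on the other strand), GGGCGG (the core of the Sp1 site, CCGCCC on the other strand), CACGTG (the E-box) and the classical sterol regulatory element, a sequence that SREBP2 binds. HSD17B7 lies at chr1:162790552-162790701 (+), LSS at chr21:46228775-46228924 (-), SREBF2 at chr22:41832955-41833104 (+), INSIG1 at chr7:155297728-155297877 (+) and STARD4 at chr5:111512536-111512685 (-).
HSD17B7: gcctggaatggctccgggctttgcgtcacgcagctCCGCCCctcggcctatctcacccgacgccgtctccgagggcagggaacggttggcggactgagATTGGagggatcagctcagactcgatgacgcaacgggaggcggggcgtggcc
LSS: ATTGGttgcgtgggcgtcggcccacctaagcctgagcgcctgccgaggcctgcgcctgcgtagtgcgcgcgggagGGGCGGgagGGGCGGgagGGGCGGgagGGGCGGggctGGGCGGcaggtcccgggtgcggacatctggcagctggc
SREBF2: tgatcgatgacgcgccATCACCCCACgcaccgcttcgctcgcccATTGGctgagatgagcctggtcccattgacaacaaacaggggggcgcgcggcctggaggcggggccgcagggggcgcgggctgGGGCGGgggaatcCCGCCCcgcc
INSIG1: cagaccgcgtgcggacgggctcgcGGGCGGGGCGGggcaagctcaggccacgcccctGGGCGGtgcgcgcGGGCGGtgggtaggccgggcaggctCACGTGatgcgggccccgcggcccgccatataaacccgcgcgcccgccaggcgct
STARD4: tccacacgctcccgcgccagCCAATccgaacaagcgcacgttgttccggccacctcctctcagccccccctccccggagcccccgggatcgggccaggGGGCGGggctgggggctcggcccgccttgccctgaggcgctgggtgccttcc
In the SREBF2 promoter the sterol regulatory element began 134 bases before the start, and an NF-Y core followed it at 106 bases. Promoters of 300 bases, from 250 before to 50 after the start, were available for 27 of the 31 genes. The classical sterol regulatory element occurred in 1 of them, SREBF2, beside 0.0586% of 27305 genes in the whole table. A looser form, TCACNCCAC, which every classical element contains, also occurred in SREBF2 alone, beside 1.39% of all genes. Other forms of the element were not searched. CCAAT occurred in 19 of the 27 (70.4%), beside 39.7% of all genes, and GGGCGG in 24 (88.9%), beside 48.3%. CACGTG occurred in 4 (INSIG1, LSS, SC5D and SCAP), beside 8.77% of all genes. HSD17B7 and LSS each held CCAAT and GGGCGG, and whether these motifs bear on their levels was not tested. A match is a description of letters in this window and not a site of binding.

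Among the genes that control SREBP2, SREBF2 itself was lower in U-937 although most of the enzymes were higher. SREBF2 had 37.64, 38.89 and 44.48 FPKM in DMSO-treated THP-1 and 21.71, 23.31 and 29.18 FPKM in U-937. The libraries did not overlap, with a log2 fold change of -0.76 (SE 0.16, 95% interval -1.12 to -0.40, adjusted p = 0.00432). Leaving out any 1 library kept it between -0.88 and -0.66. SCAP, the escort, was nearly level, with 18.85, 21.44 and 21.22 FPKM in THP-1 and 21.13, 20.68 and 22.16 FPKM in U-937 (interval of the log2 fold change -0.31 to 0.32).

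INSIG1, the anchor that is itself a target of SREBP2, was the least even of the detected genes among the DMSO libraries of U-937. It had 18.95, 19.94 and 39.49 FPKM in DMSO-treated THP-1 and 17.79, 58.71 and 79.07 FPKM in U-937, where the highest library held 4.44 times the lowest. With this spread the log2 fold change of 0.92 had an interval from -0.16 to 2.01 (adjusted p = 0.145). INSIG2, a related anchor that is not a classical target of SREBP2, had 3.43, 7.17 and 10.54 FPKM in THP-1 and 3.33, 2.77 and 5.75 FPKM in U-937 (log2 fold change -0.88, adjusted p = 0.101). Neither anchor differed between the lines beyond its spread.

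MBTPS1, the site-1 protease, had 10.77, 8.70 and 10.07 FPKM in DMSO-treated THP-1 and 10.13, 12.64 and 14.67 FPKM in U-937, with overlap (adjusted p = 0.239). MBTPS2, the site-2 protease, had 1.73, 1.24 and 1.29 FPKM in THP-1 and 2.29, 2.90 and 3.31 FPKM in U-937 (log2 fold change 0.92, adjusted p = 0.0117). The MBTPS2 libraries did not overlap, but its call was lost without THP-1 replicate 2 (adjusted p = 0.0616) or THP-1 replicate 3 (adjusted p = 0.0561). STARD4, a cytosolic carrier of cholesterol between membranes, had 5.47, 6.73 and 8.53 FPKM in THP-1 and 1.87, 3.43 and 3.64 FPKM in U-937. STARD4 was thus lower in U-937, in all libraries, with a log2 fold change of -1.27 (SE 0.26, adjusted p = 0.00402). It overlaps STARD4-AS1 on the other strand, which ranged from 0.44 to 1.81 FPKM in the 12 libraries.

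The fatty acid genes did not differ in 1 direction. ACACA, the acetyl-CoA carboxylase that commits carbon to fatty acids, had 12.38, 12.52 and 10.33 FPKM in DMSO-treated THP-1 and 5.39, 6.94 and 9.26 FPKM in U-937 (log2 fold change -0.77, adjusted p = 0.0139). FASN had 65.12, 70.00 and 70.11 FPKM in THP-1 and 100.60, 108.94 and 123.32 FPKM in U-937 (log2 fold change 0.64, adjusted p = 0.00880). These consecutive enzymes of one route therefore lay in opposite directions, each without overlap of the libraries. The ACACA call was lost without U-937 replicate 1 (log2 fold change -0.58, adjusted p = 0.05, not under it) or U-937 replicate 2 (adjusted p = 0.0600) and without replicate 1 of both lines (adjusted p = 0.0516), and the FASN call without THP-1 replicate 2 (adjusted p = 0.0659) or THP-1 replicate 3 (adjusted p = 0.0558). ACLY ranged from 68.98 to 75.13 FPKM in THP-1 and from 47.90 to 63.69 FPKM in U-937, without overlap, but its adjusted p was 0.0594.

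ELOVL6 passed the limit only through the THP-1 libraries. It had 0.45, 1.17 and 0.54 FPKM in DMSO-treated THP-1 and 0.00, 0.02 and 0.02 FPKM in U-937, from 240 to 629 and 0 to 14 estimated counts. All U-937 values were below all THP-1 values, and the difference was not tested because only 2 DMSO libraries reached the limit. The desaturases FADS1 and FADS2, which introduce the double bonds of polyunsaturated fatty acids, overlap each other on opposite strands, and FADS2 overlaps FEN1 on its own strand, so their counts cannot be fully separated. FADS1 had 23.54, 20.11 and 22.77 FPKM in DMSO-treated THP-1 and 17.30, 19.92 and 18.55 FPKM in U-937, and FADS2 had 24.62, 21.53 and 14.04 FPKM and 28.76, 16.62 and 21.97 FPKM. Neither passed the test between the lines (adjusted p = 0.136 and 0.790).

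With honokiol, none of the genes passed an adjusted p under 0.05 in either line by edgeR. In THP-1 all 31 genes were tested, and the lowest adjusted p was 0.227, while 6 of all 14600 genes (0.0411%) passed. An unadjusted p under 0.05 was reached by 6 of the 31 genes (19.4%), beside 13.1% of all genes. With honokiol 3 of them were higher, beside 6.84% of all genes, and 3 were lower, beside 6.22%. The libraries of the treatments did not overlap for 4 genes (12.9%), 3 higher and 1 lower with honokiol, beside 20.6% of all genes. Over all genes without overlap, 1898 were higher and 1113 were lower. The median log2 fold change was 0.01, and 0 over all genes. No gene had an absolute log2 fold change over 1, and for 23 of the 31 genes the 95% interval lay within 1 on either side of 0. DESeq2 called 1 gene, MBTPS1 (adjusted p = 0.0472), beside 3.50% of all genes to which it gave an adjusted p. The count of 6 fell to 2 without DMSO replicate 1, a library with a high mitochondrial share, and to 1 without honokiol replicate 3. In these fits 13.2% and 6.12% of all genes reached an unadjusted p under 0.05.

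The genes with lower p-values in THP-1 had no common role. STARD4 had 5.47, 6.73 and 8.53 FPKM with DMSO and 8.62, 10.93 and 12.86 FPKM with honokiol, all honokiol libraries lying above all DMSO libraries (log2 fold change 0.60, unadjusted p = 0.0147, adjusted p = 0.289). HSD17B7 had 0.89, 0.97 and 1.13 FPKM with DMSO and 1.21, 1.69 and 1.85 FPKM with honokiol, also without overlap (0.61, adjusted p = 0.335). MSMO1 had 4.25, 5.27 and 7.72 FPKM with DMSO and 7.49, 9.44 and 9.60 FPKM with honokiol, with overlap (0.58, adjusted p = 0.335). MSMO1 and HSD17B7 act at the removal of the C4 methyl groups, and NSDHL, their partner there, had a log2 fold change of -0.02 (interval -0.35 to 0.32).

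MBTPS1 had 10.77, 8.70 and 10.07 FPKM with DMSO and 6.83, 7.47 and 5.84 FPKM with honokiol in THP-1, without overlap (log2 fold change -0.61, unadjusted p = 0.00567, adjusted p = 0.227). ACAT2 had 12.06, 16.83 and 10.42 FPKM with honokiol (-0.56, adjusted p = 0.330), and FADS2 had 12.49, 14.70 and 9.03 FPKM (-0.80, adjusted p = 0.297). The honokiol and DMSO libraries of both genes overlapped. SQLE, at 11.10, 14.59 and 11.19 FPKM with honokiol, lay above all its DMSO libraries (0.29, adjusted p = 0.487). SREBF2 had 29.26, 40.46 and 35.00 FPKM with honokiol (-0.26, adjusted p = 0.478), INSIG1 had 27.34, 33.34 and 24.10 FPKM (0.07, interval -0.56 to 0.70), and INSIG2 had 10.21, 5.18 and 7.34 FPKM (0.07, interval -0.80 to 0.95). For these regulators the treatments overlapped, so neither the factor nor its anchors moved beyond the spread in THP-1.

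In U-937, 29 of the 31 genes were tested, and HSD17B7 and ELOVL6 were below the limit. None passed an adjusted p under 0.05, beside 0.0947% of all 13726 genes, and the lowest adjusted p was 0.142. An unadjusted p under 0.05 was reached by 6 genes (20.7%), beside 16.7% of all genes. With honokiol 4 of them were higher, beside 8.25% of all genes, and 2 were lower, beside 8.44%. The same 6 genes were those without overlap of the libraries, beside 24.2% of all genes. Over all genes without overlap, 2287 were higher with honokiol and 1029 were lower. The median log2 fold change was 0.14, with 20 genes above 0 and 9 below, and 0.02 over all genes. Without DMSO replicate 1, the library with a high mitochondrial share, the median was -0.02, and without honokiol replicate 3, whose mitochondrial share was 6.19%, it was 0.02. For 21 of the 29 genes the 95% interval lay within 1 on either side of 0. DESeq2 called 2 genes, STARD4 (adjusted p = 0.0116) and ACACA (adjusted p = 0.0336), beside 6.12% of all genes to which it gave an adjusted p.

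STARD4 had 1.87, 3.43 and 3.64 FPKM with DMSO and 5.42, 5.93 and 6.56 FPKM with honokiol in U-937. All honokiol libraries were above all DMSO libraries, with a log2 fold change of 0.92 (95% interval 0.38 to 1.46, unadjusted p = 0.00422, adjusted p = 0.142) that ranged from 0.69 to 1.06 with any 1 library left out. STARD4 was the only one of the genes with an unadjusted p under 0.05 in both lines. Such a p was reached by 13.1% of all genes for THP-1 and by 16.7% for U-937. The share of all genes reaching it in both lines was not counted. Whether 1 shared gene is more than that background was therefore not tested. The STARD4 effect did not differ between the lines beyond the spread (difference 0.32, interval -0.38 to 1.01). ACACA had 5.39, 6.94 and 9.26 FPKM with DMSO and 14.36, 11.20 and 11.63 FPKM with honokiol (0.71, 95% interval 0.26 to 1.15, adjusted p = 0.154). FASN, the next enzyme, had 100.60, 108.94 and 123.32 FPKM with DMSO and 85.12, 77.43 and 98.32 FPKM with honokiol (-0.44, adjusted p = 0.215). The honokiol libraries lay above the DMSO libraries for ACACA and below them for FASN. Each gene had the opposite sign between the DMSO-treated lines, and since both comparisons share the DMSO libraries of U-937 nothing is read from that.

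MBTPS2 had 4.96, 3.92 and 4.09 FPKM with honokiol in U-937, above its DMSO libraries (log2 fold change 0.53, adjusted p = 0.200). SCAP had 18.19, 18.63 and 17.55 FPKM with honokiol, below its DMSO libraries (-0.32, adjusted p = 0.217). FADS1 had 20.50, 27.77 and 27.49 FPKM (0.35, adjusted p = 0.291). The treatments did not overlap for these 3 genes. SREBF2 had 36.66, 27.92 and 33.76 FPKM with honokiol, overlapping DMSO (0.32, adjusted p = 0.351), and INSIG2 had 7.52, 5.37 and 4.84 FPKM (0.50, adjusted p = 0.428). INSIG1 had 65.01, 23.22 and 58.44 FPKM with honokiol, so that both treatments held 1 low library (-0.14, interval -1.35 to 1.07). With this spread, INSIG1 effects anywhere in that interval are compatible with the values.

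**Figure D3:**
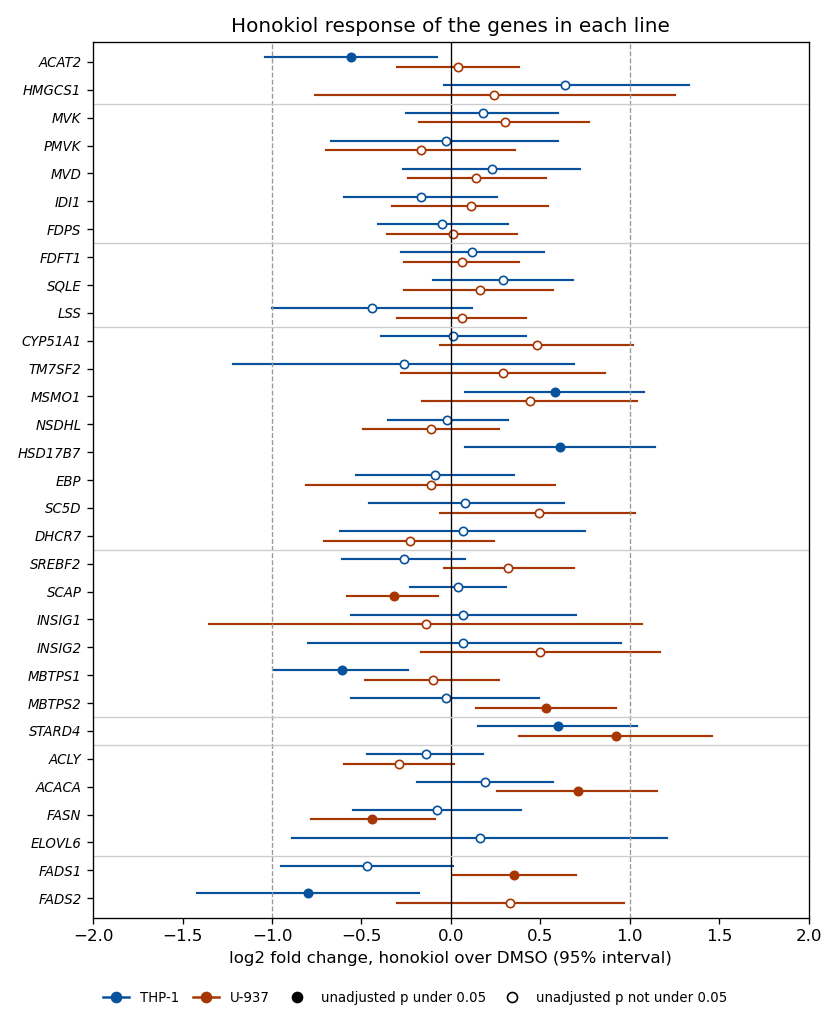
Log2 fold change of each gene with honokiol over DMSO in THP-1 (blue) and U-937 (red), with 95% intervals from edgeR and 3 libraries a group. Filled points mark an unadjusted p under 0.05, dashed lines mark a fold change of 1 on the log2 scale, and no gene had an adjusted p under 0.05. STARD4 is the only gene with filled points in both lines, and HSD17B7 and ELOVL6 have no point in U-937.

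For all sterol synthesis enzymes tested in U-937 the treatments overlapped. Over the 3 squalene steps the log2 fold changes were 0.06 to 0.16, and over the 5 genes from mevalonate to farnesyl diphosphate the median was 0.11. CYP51A1 had 24.39, 26.15 and 32.77 FPKM with honokiol (0.48, adjusted p = 0.350) and DHCR7 had 19.54, 14.59 and 18.86 FPKM (-0.23, adjusted p = 0.615). LSS had 21.17, 20.90 and 21.98 FPKM with honokiol in U-937 and 2.78, 3.85 and 1.98 FPKM in THP-1, and the gap between the lines was therefore also present with honokiol. NSDHL ranged from 21.01 to 28.20 FPKM in honokiol-treated U-937 and from 7.71 to 8.18 FPKM in honokiol-treated THP-1. EBP ranged from 20.50 to 38.18 FPKM and from 8.25 to 9.94 FPKM. The difference between the lines under honokiol was not itself tested.

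The test of whether the honokiol effect differed between the lines, in 1 fit of the 12 libraries, called none of the 31 genes at an adjusted p under 0.05, beside 0.111% of all 16283 genes. An unadjusted p under 0.05 was reached by 6 genes (19.4%), beside 9.37% of all genes, and that count was 3 without honokiol replicate 1 of U-937. One of the 6 is HSD17B7, and over genes past the limit in both lines the count was 5 of 29 members, beside 9.30% of all genes. DESeq2 also called none and gave 6 genes at the unadjusted p. For HSD17B7 the difference cannot be read, since U-937 was at the floor. FADS1 (difference 0.81, U-937 minus THP-1, 95% interval 0.23 to 1.40, adjusted p = 0.369) and FADS2 (1.13, 0.19 to 2.06, adjusted p = 0.439) had the largest values among the rest, and these overlapping genes are not independent. FADS2 had 35.22, 35.70 and 20.35 FPKM with honokiol in U-937, where the fold change was 0.33, against -0.80 in THP-1. ACAT2 (0.59), SREBF2 (0.58) and SCAP (-0.38) were the others, with adjusted p-values of 0.524, 0.433 and 0.421.

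**Figure D4:**
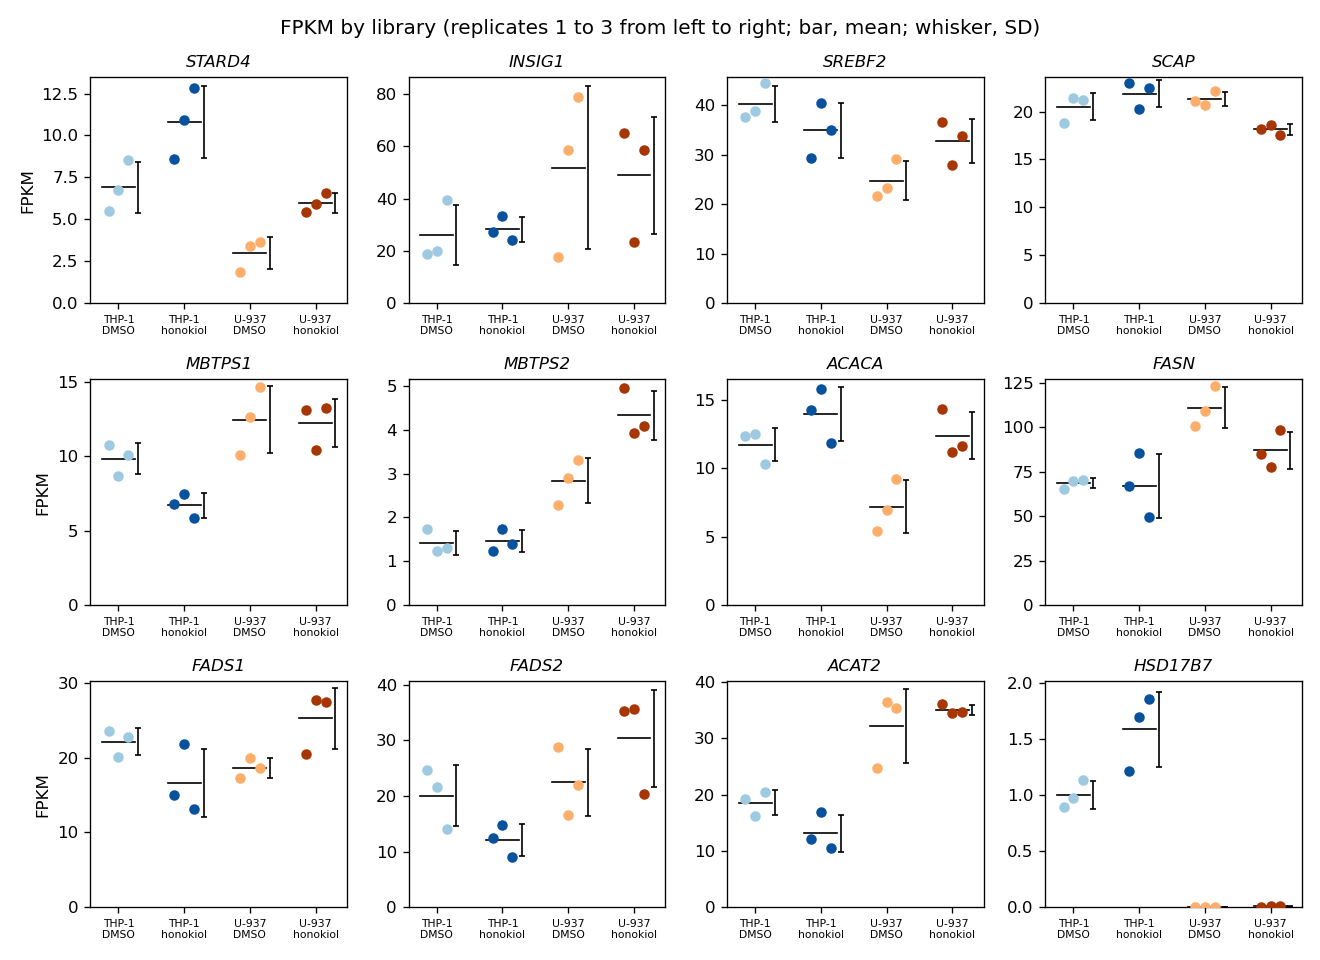
FPKM of 12 of the genes in each library, in the order of the replicates within a group, with the mean (bar) and SD (whisker) of 3 libraries and every axis starting at 0. STARD4 lies higher with honokiol in both lines, MBTPS1 lies lower in THP-1, ACACA lies higher and FASN lower in U-937, the INSIG1 libraries of U-937 spread from 17.79 to 79.07 FPKM, and HSD17B7 is at 0.01 FPKM or less in U-937.

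The genes also differed together between libraries of the same group. In DMSO-treated U-937, replicate 1 was the lowest of the 3 libraries for 24 of the 29 genes at or above 0.5 FPKM (82.8%), beside 47.4% of all 12034 such genes with 3 different values. On TMM-normalized CPM, counts scaled to library size and its TMM factor but not to transcript length, the values were 24 of 30 (80.0%) and 38.9%. This is the U-937 library with the high mitochondrial share, whose part in the result was not tested. In honokiol-treated THP-1, replicate 2 was the highest for 24 of the 31 genes (77.4%), beside 31.5% of all 13185 genes, and for 25 of the 31 (80.6%) beside 35.0% on TMM-normalized CPM. Its mitochondrial share was 7.55%, against 6.91% and 6.44% in the other libraries of the group. DMSO replicate 1 of THP-1, with the highest mitochondrial share, was the lowest for 17 of the 31 genes (54.8%), beside 48.9% of all genes. On TMM-normalized CPM it was the lowest for 11 of the 31 (35.5%), beside 36.9% of all genes, and the highest for 15 (48.4%), beside 41.6%. These shares are descriptions, since the genes of a library are not independent of each other.

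Between the lines, leaving out both DMSO libraries with a high mitochondrial share gave 17 genes in place of 18, and a median log2 fold change of 0.45 in place of 0.30. HSD17B7 could not be tested in that fit, for lack of THP-1 libraries, and ACACA was not called. The 17 are therefore not all among the 18. Of the 18 genes, 11 were called under every alternative in which they could be tested: MVK, MVD, FDFT1, SQLE, LSS, NSDHL, EBP, DHCR7, SREBF2, STARD4 and HSD17B7. HSD17B7 was tested in only 12 of the 17 alternatives. It passed the limit only through the THP-1 libraries, so its calls add no support. The other 7 were each lost under at least 1.

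Other genes of these routes, from 3 lists of 34 genes in all, gave no call with honokiol. They were 9 genes of the isoprenoid branches, which lead from farnesyl diphosphate to dolichol, coenzyme Q and prenylated proteins, 9 further genes of SREBP control and sterol-regulated degradation, and 16 genes of lipid synthesis. None passed an adjusted p under 0.05 with honokiol by edgeR in THP-1 (34 tested) or U-937 (33 tested). An unadjusted p under 0.05 was reached by 4 genes in each line (11.8% and 12.1%, beside 13.1% and 16.7% of all genes). In THP-1 these included FNTB (-0.93), a farnesyltransferase subunit, ME1 (0.47), the malic enzyme, and PCYT2 (-0.44), an enzyme of phosphatidylethanolamine synthesis. In U-937 these were HACD3 (-0.71), a dehydratase of fatty acid elongation, RDH11 (0.53), a retinol dehydrogenase, ELOVL5 (0.36), an elongase of polyunsaturated fatty acids, and UBE2G2 (-0.33), a ubiquitin-conjugating enzyme. Between the DMSO-treated lines 17 of the 34 genes (50.0%) passed, beside 47.3% of all genes and 60.0% of the 30 members tested. Of these, 10 were higher in U-937, beside 22.0% of all genes, and 7 were lower, beside 25.4%, and the median log2 fold change was 0.04. The lower genes include ME1, which was below the limit in U-937 and was not tested with honokiol there. It passed between the lines through the THP-1 libraries, so its call adds no support. By list, 3 of the 9 genes of the isoprenoid branches passed (median -0.17), 6 of the 9 of SREBP control (5 higher and 1 lower, median 0.60) and 8 of the 16 of lipid synthesis (4 higher and 4 lower, median 0.04). Whether the lists differ was not tested.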

How the data were processed

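Poly(A) RNA of THP-1 and U-937 cells was sequenced in 12 paired-end libraries. For each of 36866 genes and each library the authors deposited an FPKM value, which takes account of transcript length and sequencing depth, and an estimated count, a whole number that was not normalized. The submitters' processing notes name Bowtie 0.12.2, HISAT2 2.0 and StringTie 1.3.0 without a role, and a mouse build, mm8, although the identifiers are human and all 31 genes overlap their GENCODE 29 entry on GRCh38. Of the low counts examined, 4 was the most frequent, with 17264 values beside 6764 of 3, 4016 of 5 and 9165 of 8. A fragment was therefore taken as worth about 4 counts, and the totals then overstate the fragments.

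The groups follow the labels. Genes that reached an FPKM of 0.5 in 3 or more libraries of a comparison were tested on the estimated counts with TMM normalization and edgeR 4.0.16 (R 4.3.3, quasi-likelihood test, no replicate term), with Benjamini-Hochberg adjustment over all genes tested and 95% intervals from the same fit. limma-trend on the FPKM values was run as an alternative (limma 3.58.1). The 4 comparisons were honokiol against DMSO in each line, their difference in 1 fit of the 12 libraries, and the DMSO-treated lines against each other. The test was checked on simulated counts.

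Values per library are given for genes with an unadjusted p under 0.05 or no overlap with honokiol, for genes called in any comparison, and for SREBF2, INSIG1 and INSIG2, and the rest by range. The members, the lists and the tests were chosen with earlier results of these data known. Alternatives were DESeq2 1.42.0, RLE size factors, no filter, an FPKM limit of 1, log2(FPKM + 0.1, 0.5 or 1), counts divided by 4, a replicate block, other sets of libraries or genes in the fit and each library left out. The scale of the overlap and the fit without both DMSO replicates 1 were added after the values were seen. The values of 1 gene of the other lists are not reported here. Promoter sequences come from RefSeq, and those of FASN, FDFT1, SQLE and ACAT2 were not used here. Depth sets the precision: at a floor of 3 fragments a library allows 12 counts.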

Additional observations from a re-analysis of the deposited data

How the results depend on the processing

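No member changed direction where it was called, in any alternative run. With DESeq2 in place of edgeR, 1 member passed an adjusted p under 0.05 with honokiol in THP-1 and 2 in U-937, in place of 0. Of all genes to which DESeq2 gave an adjusted p, 3.50% and 6.12% passed, and the cause was not tested. With each library left out in turn, the members at an unadjusted p under 0.05 numbered 1 to 7 in THP-1, 4 to 7 in U-937 and 3 to 9 for the difference between the lines, each in place of 6, in fits with fewer libraries. The members called between the DMSO-treated lines numbered 13 to 17 in place of 18, and their median log2 fold change was 0.18 to 0.53 in place of 0.30. Libraries of 1 line with the same replicate number deviated from their group means with correlations of -0.16 to 0.09. For libraries of 1 line with different numbers the correlations between treatments were -0.08 to 0.2. With 3 libraries a group these values cannot show whether the numbers pair the samples. With a replicate block, no member was called with honokiol, 5 and 4 members reached an unadjusted p under 0.05 in THP-1 and U-937 and 4 for the difference between the lines, and 18 were called between the lines. HSD17B7 was not tested between the lines at an FPKM limit of 1 or without 1 THP-1 library. With 3 libraries a group, an exact permutation test of 1 gene cannot go below p = 0.1, and members at a few fragments, HSD17B7 and ELOVL6 in U-937, allow no honokiol comparison.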
